A study of Homo sapiens with 45 samples.

Results

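Integrins are the cell-surface receptors that tie epithelial cells to the matrix around them, and laminins and collagens are the matrix chains that many of them bind. The genes of these families were taken from the count table by symbol: 83 of its 57353 rows matched the symbols of integrin subunits, laminin chains or collagen chains (27 integrin, 12 laminin and 44 collagen symbols). One of the 27, ITGBL1, is an integrin beta-like gene and no subunit, and it reached 0.0137 CPM at most. The 55 genes that reached a mean of 1 CPM (counts per M counts of the library, with the total scaled within its line) in at least one of the 15 groups are described here, 19 integrins, 8 laminins and 28 collagens. RNA was sequenced from 45 libraries of 3 breast cancer lines, MDA-MB-134-VI (MM134) and MDA-MB-330 (MM330), both of invasive lobular origin, and HCC1428, of invasive ductal origin. All cells had 3 days without hormone in charcoal-stripped serum and were then transfected with siRNA. In each line, 3 libraries each came from cells with siRNA against ESR1 and estradiol (siER_E2), siRNA against FOXA1 and estradiol (siFOXA1_E2), siRNA against MDC1 and estradiol (siMDC1_E2), non-targeting siRNA and estradiol (siNT_E2), and non-targeting siRNA with vehicle, which was 0.01% ethanol (siNT). Estradiol (E2) was given at 100 pM a day after transfection, and cells were collected 24 h later. The comparisons ask what estradiol changes (siNT_E2 against siNT) and what each knockdown changes in its presence (each against siNT_E2).

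A laminin is a trimer of an alpha, a beta and a gamma chain that builds the basement membrane under epithelia, and collagen IV forms the network beside it. An integrin is a pair of an alpha and a beta subunit: the ITGB1 product pairs with many alphas to bind collagen or laminin, and the ITGA6 and ITGB4 products anchor breast epithelium to laminin in hemidesmosomes. Estrogen receptor alpha, the product of ESR1, is a hormone-activated transcription factor, FOXA1 is the forkhead factor that opens chromatin for it in luminal breast cells, and MDC1 is an adaptor of the DNA damage response.

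Each library held 21.0 to 36.7 M counts. The targeted transcript was lower with its own siRNA in every line: ESR1 averaged 65.9, 21.5 and 206 CPM in siER_E2 cells against 573, 275 and 413 CPM in siNT_E2 cells of MM134, MM330 and HCC1428. FOXA1 averaged 120, 134 and 86.6 CPM in siFOXA1_E2 cells against 471, 486 and 271 CPM, and MDC1 averaged 42.7, 39.8 and 43.9 CPM in siMDC1_E2 cells against 186, 195 and 168 CPM. ESR1 itself averaged 117, 201 and 371 CPM in siFOXA1_E2 and 129, 142 and 380 CPM in siMDC1_E2 cells, so all 3 knockdowns came with less ESR1 than siNT_E2. MDC1 was also below siNT_E2 in the other knockdowns, at 121, 98.8 and 74.5 CPM in siER_E2 and 146, 119 and 90.2 CPM in siFOXA1_E2 cells. FOXA1 was higher in siER_E2 cells, at 582, 553 and 419 CPM. All 7 luminal markers were present in every line, the 7 fibroblast markers summed to at most 0.379 CPM in any library, and the endothelial marker CDH5 had no count, while VWF exceeded 1 CPM in MM330 and HCC1428. In 11 libraries pseudogene rows took 0.337 to 0.494% of counts, against 0.123 to 0.158% in the other 34, and where a call listed below for all lines ended without them, the adjusted p without them is given. Whether the libraries of one group are separate cultures is not in the labels, and p-values measure only the spread between these libraries. In bulk RNA, fewer cells with a transcript and less of it per cell cannot be told apart.

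The lines expressed different sets of chains. Of the 55 members, 41 reached 1 CPM in a group of MM134, 43 in MM330 and 51 in HCC1428, and 35 did so in all lines. COL4A6 did so in MM134 alone, COL15A1 in MM330 alone, and 8 members in HCC1428 alone, among them COL22A1, COL23A1, COL4A3, COL6A2, ITGA1, ITGA9 and LAMC3. Per kilobase of exon in siNT cells, the highest level in MM134 was that of LAMB2, the beta chain of laminin-521, at 93.9 CPM per kb, followed by ITGB1 at 34.3, LAMB1 at 26.9 and LAMA5 at 26.2 CPM per kb. In MM330 the order was ITGB1 at 82.5, LAMB2 at 73.7, ITGB4 at 52.7 and LAMA5 at 20.4 CPM per kb. HCC1428 was led by COL12A1, a collagen that coats interstitial fibrils, at 87.2 CPM per kb, ahead of LAMA5 at 32.1, ITGB1 at 25.6 and COL18A1 at 21.9 CPM per kb. The remaining 28 rows stayed below 1 CPM in every group. They include COL1A2, the second chain of type I collagen, at a highest group mean of 0.518 CPM, COL4A1, the usual partner of COL4A2, at 0.0566 CPM with 20 counts over 12 libraries, and COL3A1, COL8A1 and LAMA1 with no count in any library. Nearest the limit, LAMC3 had a highest mean of 1.03 CPM and COL22A1 of 1.07 CPM inside it, and COL13A1 of 0.867 CPM outside it.

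**Figure D1:**
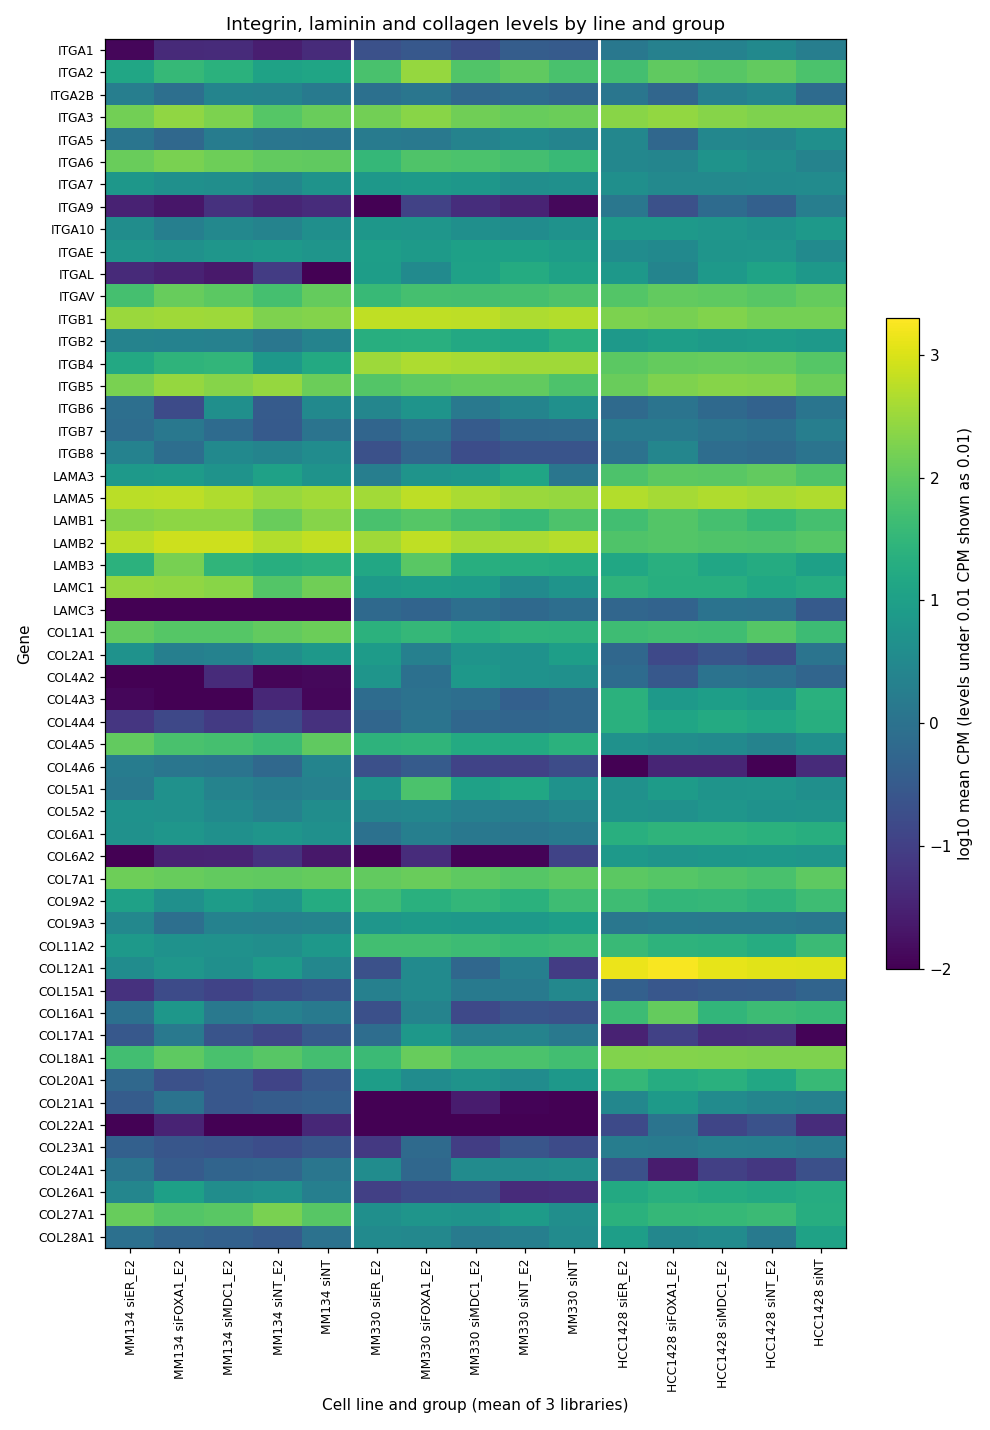
Colour shows the log10 mean CPM of 3 libraries for the members (rows, by family, 1 not drawn) in each of the 15 groups (columns, by line), with levels under 0.01 CPM shown as 0.01. COL12A1 is the brightest row in HCC1428, at 1790 CPM in siFOXA1_E2 and 1088 CPM in siNT cells. LAMB2 is bright in MM134 and MM330, and LAMA5 is bright in every line.

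Under vehicle, LAMB2 and ITGA6 were higher in both lobular lines than in HCC1428, and COL12A1 was lower. In edgeR's quasi-likelihood test over all 45 libraries, with a Benjamini-Hochberg adjusted p under 0.05 as the call throughout, 53 of 55 members differed between MM134 and HCC1428, 19 higher and 34 lower, where 75.6% of all genes tested were called, 35.7% higher and 39.9% lower. Between MM330 and HCC1428 46 differed, 18 higher and 28 lower, with 73.0% of all genes called (35.2% and 37.7%), and between MM134 and MM330 48 differed, 22 higher and 26 lower, with 72.4% (35.5% and 36.9%). LAMB2 averaged 645 ± 9.90 CPM in MM134 and 506 ± 8.60 CPM in MM330, against 79.4 ± 2.22 CPM in HCC1428 (SD, n = 3 each), log2 differences of 2.85 ± 0.05 and 2.68 ± 0.05 (SE). CPM were scaled within each line and the log2 differences over all 45 libraries, so ratios of CPM between lines differ somewhat from them. ITGA6, the laminin-binding alpha subunit of hemidesmosomes, averaged 100 CPM in MM134 and 38.6 CPM in MM330, against 2.31 CPM in HCC1428. COL12A1 went the other way, at 2.84 CPM in MM134 and 0.0857 CPM in MM330, against 1088 CPM in HCC1428 (log2 differences -8.76 ± 0.11 and -13.51 ± 0.16, the second resting on 8 counts in MM330). The lobular lines also differed from each other: LAMC1, the gamma chain of most laminins, averaged 141 CPM in MM134 against 5.60 CPM in MM330 (log2 difference 4.46 ± 0.09), and ITGB4 averaged 16.5 CPM in MM134 against 356 CPM in MM330 (log2 difference -4.61 ± 0.06). With 3 lines, differences between tumour types cannot be told apart from differences between lines.

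Within a line, a large share of all genes changed in most comparisons, and each count of members is set against that share. Estradiol changed 34 of 44 in MM134 (54.4% of all genes), 8 higher and 26 lower (all genes 27.2% and 27.2%). In the other lines it changed 23 of 48 in MM330 (26.3% of all genes), 9 higher and 14 lower (all genes 13.7% and 12.6%), and 37 of 52 in HCC1428 (54.8% of all genes), 17 higher and 20 lower (all genes 29.1% and 25.7%). The median log2 difference of tested members with estradiol was -0.47 in MM134, -0.13 in MM330 and 0.01 in HCC1428, against -0.03, -0.00 and -0.03 over all genes. Knockdown of ESR1 under estradiol changed 32 of 44 in MM134 (57.2% of all genes), 25 higher and 7 lower (all genes 29.3% and 27.9%). In the other lines it changed 30 of 48 in MM330 (32.5% of all genes), 15 higher and 15 lower (all genes 15.1% and 17.4%), and 32 of 52 in HCC1428 (51.2% of all genes), 19 higher and 13 lower (all genes 22.5% and 28.7%). FOXA1 knockdown changed 36 of 44 in MM134 (56.3% of all genes), 24 higher and 12 lower (all genes 27.9% and 28.5%). In the other lines it changed 35 of 48 in MM330 (49.0% of all genes), 27 higher and 8 lower (all genes 24.4% and 24.6%), and 35 of 52 in HCC1428 (53.6% of all genes), 24 higher and 11 lower (all genes 24.1% and 29.5%). Their median log2 difference with siFOXA1 was 0.69 in MM134, 0.64 in MM330 and 0.12 in HCC1428, against 0.01, -0.01 and -0.03 over all genes. MDC1 knockdown changed 28 of 44 in MM134 (50.3% of all genes), 19 higher and 9 lower (all genes 25.4% and 25.0%). In the other lines it changed 17 of 48 in MM330 (20.8% of all genes), 10 higher and 7 lower (all genes 10.4% and 10.4%), and 23 of 52 in HCC1428 (29.1% of all genes), 16 higher and 7 lower (all genes 13.2% and 15.9%). The 11, 7 and 3 members not tested in MM134, MM330 and HCC1428 had too few counts, and a member that passed that filter only through a group where it is high had to differ. The estradiol comparison and the 3 knockdown comparisons of a line all use its siNT_E2 libraries, so their values are given side by side and not as separate evidence.

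**Figure D2:**
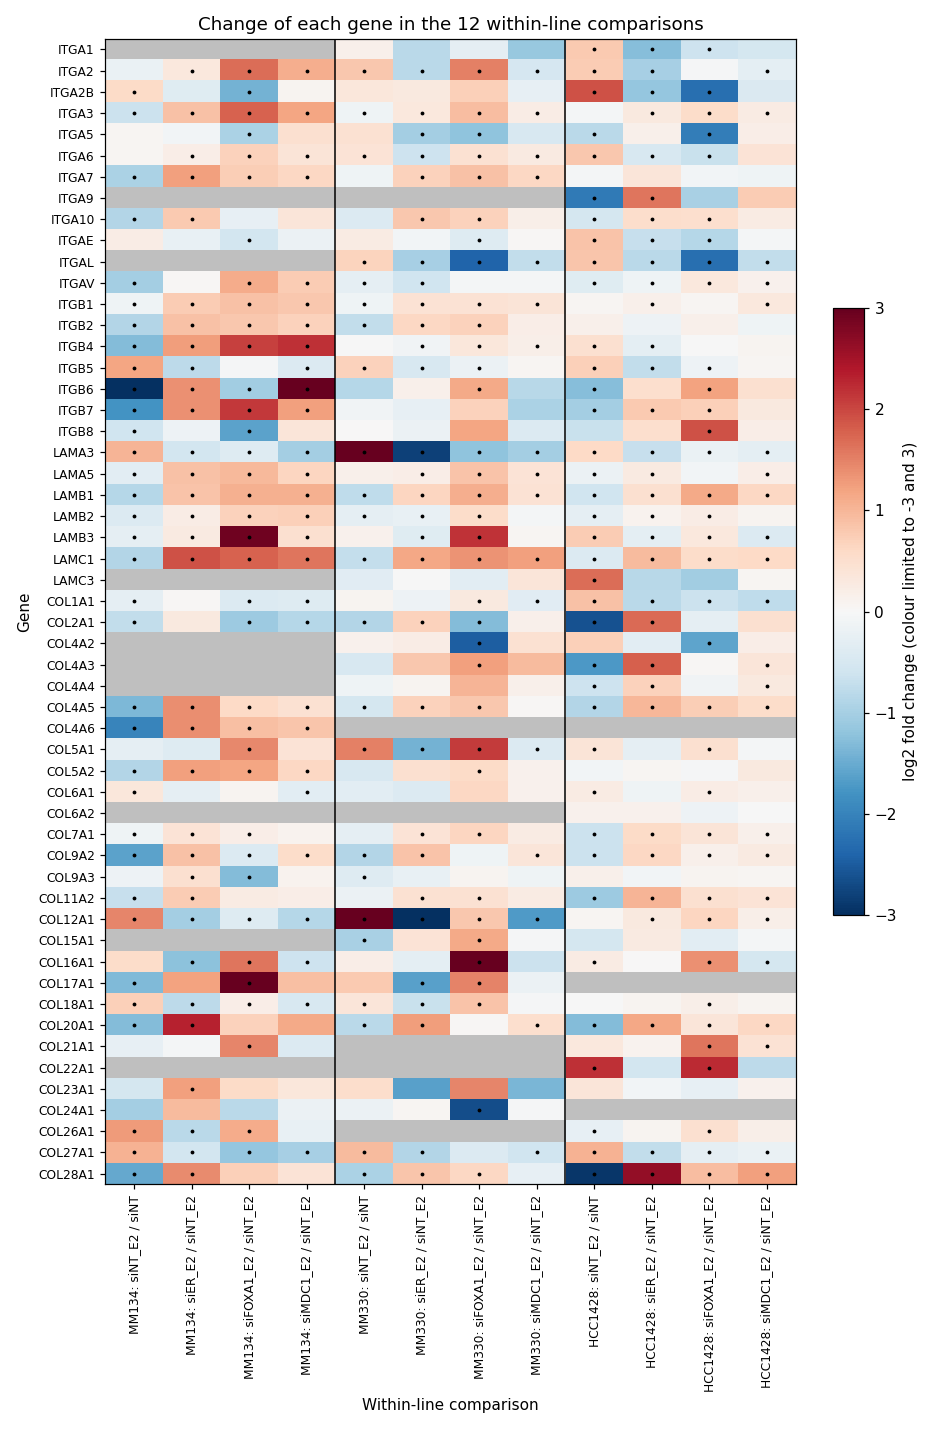
Colour shows the log2 fold change of the members (rows, 1 not drawn) in the 12 within-line comparisons (columns), limited to -3 and 3, with a dot where the adjusted p is under 0.05 and grey where the member was not tested. LAMA3, LAMB1 and LAMC1 have a dot in all 12 columns.

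Of the 39 members tested in all lines, 3 were called higher and 9 lower in every line with estradiol, against 8.36% and 6.56% of all genes tested in all lines. With siER 12 were higher and 3 lower (all genes 7.39% and 10.3%), with siFOXA1 10 and 3 (10.6% and 14.5%), and with siMDC1 6 and 3 (4.27% and 4.29%). Estradiol raised COL27A1, ITGB5 and LAMA3 and lowered COL20A1, COL28A1, COL2A1, COL4A5, COL9A2, ITGAV, LAMB1, LAMB2 and LAMC1. ESR1 knockdown raised COL11A2, COL20A1, COL28A1, COL4A5, COL7A1, COL9A2, ITGA10, ITGA3, ITGB1, LAMA5, LAMB1 and LAMC1, and lowered COL27A1, ITGB5 and LAMA3. FOXA1 knockdown raised COL16A1, COL18A1, COL4A5, COL5A1, COL7A1, ITGA3, LAMB1, LAMB2, LAMB3 and LAMC1, and lowered ITGA5, ITGAE and LAMA3. MDC1 knockdown raised COL9A2, ITGA3, ITGB1, LAMA5, LAMB1 and LAMC1, and lowered COL1A1, COL27A1 and LAMA3. Some of these calls ended when 1 library was left out. With estradiol in MM134, COL20A1 had an adjusted p of 0.13 without siNT replicate 2, and 0.057, 0.089 and 0.071 without siNT_E2 replicate 1, 2 or 3. In MM330, LAMC1 had 0.064 with estradiol without siNT replicate 2 and 0.056 without siNT_E2 replicate 3, and LAMA5 with siER had 0.075 without siNT_E2 replicate 3. ITGAE with siFOXA1 in MM330 had 0.11 and 0.072 without siFOXA1_E2 replicate 2 or 3, and 0.054 and 0.098 without siNT_E2 replicate 2 or 3, and those of LAMA3 are given with that gene. With siMDC1, COL9A2 in MM330 had 0.069 without siMDC1_E2 replicate 1 and 0.081 without siNT_E2 replicate 3. LAMA5 in HCC1428 had 0.19 and 0.072 without siMDC1_E2 replicate 1 or 3, and 0.12 without siNT_E2 replicate 2. COL27A1 with siMDC1 had 0.17, 0.087 and 0.25 in HCC1428 without siMDC1_E2 replicate 2 or 3 or siNT_E2 replicate 3, and in MM330 its call ended without any one of siMDC1_E2 replicates 1, 2 and 3 and siNT_E2 replicates 1 and 2 (adjusted p 0.079 to 0.13). With only the libraries of lower pseudogene share, the adjusted p was 0.052 for COL20A1 with estradiol in MM134, 0.072 for LAMC1 and 0.17 for ITGAV with estradiol in MM330, and 0.1 for COL9A2 and 0.24 for COL27A1 with siMDC1 in MM330. Of the 39 members tested in all lines, LAMA3, LAMB1 and LAMC1 were called in all 12 comparisons, where 1.93% of all genes tested in all lines were, and 21 in at least 9, where 24.4% were. ITGAE and HASPIN on the other strand share exon bases and may share reads.

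Of the laminin chains, LAMB1 and LAMC1 moved one way in the 3 lines and LAMA3 the other. The summed level of the 8 laminin genes in MM134 averaged 1657 CPM in siER_E2, 2057 in siFOXA1_E2, 1791 in siMDC1_E2, 1017 in siNT_E2 and 1412 CPM in siNT cells. In MM330 the sums were 812, 1388, 917, 815 and 887 CPM in that order of groups, and in HCC1428 721, 679, 717, 650 and 694 CPM. The start regions of the 4 laminin genes on which the results turn follow, as RefSeq gives them on GRCh38.p14, 250 bases before to 50 bases after the start, 5′ to 3′ on the gene's strand. They are shown to set the 2 genes that moved together, LAMB1 and LAMC1, beside LAMA3, which moved against them, and LAMB3, which rose with FOXA1 knockdown. Capitals mark matches on either strand to a GC box (GGGCGG), an AP-1 motif (TGANTCA), a forkhead motif (TGTTTAC) or an estrogen response element (GGTCANNNTGACC). The windows are LAMA3 at chr18:23872770-23873069 (plus strand, inside the annotated gene, which spans 23689443 to 23956222), LAMB1 at chr7:108003112-108003411 (minus strand), LAMC1 at chr1:183023170-183023469 (plus strand) and LAMB3 at chr1:209652376-209652675 (minus strand, the first of 3 windows in the table).
LAMA3: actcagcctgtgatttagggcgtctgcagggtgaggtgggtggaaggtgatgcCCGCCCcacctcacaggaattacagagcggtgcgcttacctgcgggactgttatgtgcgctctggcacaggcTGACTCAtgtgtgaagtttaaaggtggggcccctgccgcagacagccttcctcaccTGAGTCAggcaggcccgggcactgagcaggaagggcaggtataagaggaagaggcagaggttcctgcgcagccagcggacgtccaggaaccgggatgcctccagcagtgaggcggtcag
LAMB1: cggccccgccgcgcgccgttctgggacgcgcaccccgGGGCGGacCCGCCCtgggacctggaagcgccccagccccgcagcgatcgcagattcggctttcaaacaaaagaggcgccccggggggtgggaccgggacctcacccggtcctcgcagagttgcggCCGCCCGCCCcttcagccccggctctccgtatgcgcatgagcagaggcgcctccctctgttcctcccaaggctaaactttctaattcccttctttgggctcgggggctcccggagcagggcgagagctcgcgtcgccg
LAMC1: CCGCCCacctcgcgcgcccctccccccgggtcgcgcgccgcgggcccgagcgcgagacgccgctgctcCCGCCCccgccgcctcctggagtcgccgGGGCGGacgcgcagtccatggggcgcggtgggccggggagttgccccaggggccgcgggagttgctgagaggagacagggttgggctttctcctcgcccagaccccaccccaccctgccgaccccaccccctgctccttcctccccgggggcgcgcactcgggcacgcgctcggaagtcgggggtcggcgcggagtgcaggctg
LAMB3: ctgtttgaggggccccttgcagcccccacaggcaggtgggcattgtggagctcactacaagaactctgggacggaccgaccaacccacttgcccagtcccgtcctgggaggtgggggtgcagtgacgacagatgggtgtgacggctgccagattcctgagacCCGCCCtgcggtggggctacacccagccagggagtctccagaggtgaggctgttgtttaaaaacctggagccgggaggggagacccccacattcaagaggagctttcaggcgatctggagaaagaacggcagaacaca

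The LAMA3 window holds 2 AP-1 matches and 1 GC box, that of LAMB1 holds 4 GC boxes, that of LAMC1 holds 3 and that of LAMB3 holds 1. The forkhead and estrogen response letters are not in these 4 windows. Of all 35116 windows in the table, 45% hold the GC box, 7.71% the AP-1 motif, 3.42% the forkhead motif and 0.057% the estrogen response element. Windows were found for 40 members, and of these 56 windows 36 hold the GC box and 3 the AP-1 motif.

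LAMC1 fell with estradiol and rose with each knockdown in every line. In MM134 it had 298, 282 and 290 CPM in siER_E2, 267, 256 and 262 in siFOXA1_E2, 238, 236 and 224 in siMDC1_E2, 76.7, 77.1 and 76.4 in siNT_E2, and 139, 141 and 142 CPM in siNT cells. The siNT_E2 libraries were the lowest, and every knockdown library lay above those of siNT as well. The log2 difference was -0.88 ± 0.03 for estradiol (adjusted p = 1.4e-15, edgeR), 1.92 ± 0.03 for siER (3e-21), 1.77 ± 0.03 for siFOXA1 (8.9e-21) and 1.60 ± 0.03 for siMDC1 (7.7e-20). In MM330 LAMC1 averaged 7.61 CPM in siER_E2, 8.77 in siFOXA1_E2, 7.95 in siMDC1_E2, 3.41 in siNT_E2 and 5.60 CPM in siNT cells, and the log2 differences were 1.16 ± 0.20 for siER, 1.35 ± 0.20 for siFOXA1 and 1.22 ± 0.20 for siMDC1. Its estradiol difference there, -0.72 ± 0.20 (adjusted p = 0.011), was lost without siNT replicate 2 (0.064) or siNT_E2 replicate 3 (0.056), and with only the libraries of lower pseudogene share (0.072). In HCC1428 the means were 27.6 CPM in siER_E2, 20.7 in siFOXA1_E2, 21.5 in siMDC1_E2, 14.2 in siNT_E2 and 19.0 CPM in siNT cells, with log2 differences of -0.41 ± 0.06 for estradiol, 0.96 ± 0.06 for siER, 0.55 ± 0.06 for siFOXA1 and 0.59 ± 0.06 for siMDC1.

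LAMB1, the beta chain of laminin-111 and laminin-511, had the same signs. In HCC1428 it had 47.2, 50.6 and 50.3 CPM in siER_E2, 81.6, 77.8 and 73.9 in siFOXA1_E2, 54.6, 55.3 and 54.2 in siMDC1_E2, 34.1, 35.5 and 36.9 in siNT_E2, and 52.0, 54.9 and 54.6 CPM in siNT cells. The siNT_E2 libraries were the lowest and the siFOXA1_E2 libraries the highest, with no overlap. FOXA1 knockdown gave log2 differences of 1.07 ± 0.04 in MM134, 1.08 ± 0.06 in MM330 and 1.13 ± 0.05 in HCC1428. Estradiol gave -0.86 ± 0.04, -0.76 ± 0.06 and -0.60 ± 0.05 in the same lines, siER gave 0.86 ± 0.04, 0.65 ± 0.06 and 0.48 ± 0.05, and siMDC1 gave 1.06 ± 0.04, 0.44 ± 0.06 and 0.62 ± 0.05. LAMB2 fell with estradiol in all lines (log2 differences -0.41 ± 0.03, -0.28 ± 0.04 and -0.28 ± 0.04) and rose with siFOXA1 (0.68 ± 0.03, 0.56 ± 0.04 and 0.22 ± 0.04). With siER it rose in MM134 (0.22 ± 0.03) and fell in MM330 (-0.23 ± 0.04). LAMA5, the alpha chain of laminin-511 and laminin-521, rose in MM134 with every knockdown, averaging 551 CPM in siER_E2, 592 in siFOXA1_E2 and 470 in siMDC1_E2 against 301 CPM in siNT_E2 cells (log2 0.87 ± 0.05, 0.97 ± 0.05 and 0.64 ± 0.05). In MM330 it averaged 587 ± 29.8 CPM in siFOXA1_E2 against 323 ± 32.7 CPM in siNT_E2 cells (SD, n = 3 each; log2 0.86 ± 0.06), and in HCC1428 386 against 407 CPM (log2 -0.08 ± 0.07, adjusted p = 0.35).

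LAMA3, the alpha chain of laminin-332, the laminin that hemidesmosomes attach to, was the laminin chain that rose with estradiol in all lines. In MM330 it had 1.64, 1.67 and 2.32 CPM in siER_E2, 4.89, 4.96 and 6.92 in siFOXA1_E2, 6.06, 6.64 and 6.74 in siMDC1_E2, 13.4, 13.2 and 12.5 in siNT_E2, and 1.22, 1.67 and 0.735 CPM in siNT cells. The siNT_E2 libraries stood above all others, and siER_E2 was closest to siNT. The estradiol difference was 10.6-fold there (log2 3.40 ± 0.23, adjusted p = 5.6e-09), and siER gave -2.79 ± 0.22, siFOXA1 -1.21 ± 0.20 and siMDC1 -1.01 ± 0.20. In MM134 estradiol gave 1.03 ± 0.13, siER -0.54 ± 0.13 and siMDC1 -1.02 ± 0.13, on means of 7.23 CPM in siER_E2, 5.18 in siMDC1_E2, 10.6 in siNT_E2 and 5.20 CPM in siNT cells. HCC1428 had more of it, 105 CPM in siNT_E2 against 70.0 CPM in siNT cells (log2 difference 0.59 ± 0.06). The siFOXA1 difference of LAMA3 was -0.38 ± 0.12 in MM134, lost without siFOXA1_E2 replicate 2 (adjusted p = 0.057) or siNT_E2 replicate 2 (0.089), and -0.20 ± 0.06 in HCC1428, lost without siNT_E2 replicate 3 (0.055) or 4 (0.074).

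LAMB3, the beta chain of laminin-332, rose with FOXA1 knockdown in every line, most in MM134. In MM134 it had 162, 159 and 163 CPM in siFOXA1_E2 against 20.8, 22.7 and 21.1 CPM in siNT_E2 cells, a 7.51-fold difference (log2 2.91 ± 0.04, adjusted p = 2.1e-22). In MM330 it had 74.4, 99.5 and 92.0 CPM in siFOXA1_E2 against 20.6, 21.2 and 17.6 CPM in siNT_E2 cells (4.49-fold, log2 2.17 ± 0.11). In HCC1428 it had 23.0, 21.0 and 22.8 CPM in siFOXA1_E2 against 16.5, 19.0 and 18.1 CPM in siNT_E2 cells (1.25-fold, log2 0.32 ± 0.08). The groups do not overlap in any line. The sum of 6 basal and myoepithelial markers was higher with siFOXA1 too. It was 14.4 to 15.4 CPM in siFOXA1_E2 against 7.75 to 9.42 CPM in siNT_E2 libraries of MM134. In MM330 it was 16.0 to 19.6 against 1.97 to 2.69 CPM, and in HCC1428 17.1 to 19.5 against 6.64 to 6.84 CPM. ACTA2 was at 0 in MM134 and KRT5 at 0 in HCC1428. Over all libraries of a line, only TP63 averaged 1 CPM or more in MM330, and only TP63, MYLK and OXTR in MM134 and HCC1428. The sum does not show a change of the whole set. The sum of the 7 luminal markers was higher as well, at 15975 to 16660 CPM in siFOXA1_E2 against 11343 to 11536 CPM in siNT_E2 libraries of MM134, 16225 to 18181 against 8189 to 8626 CPM in MM330, and 15147 to 15610 against 12913 to 13696 CPM in HCC1428. ESR1, 1 of these 7, was lower with siFOXA1 in every line, as given above. The part of both lists in the LAMB3 result was not tested.

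**Figure D3:**
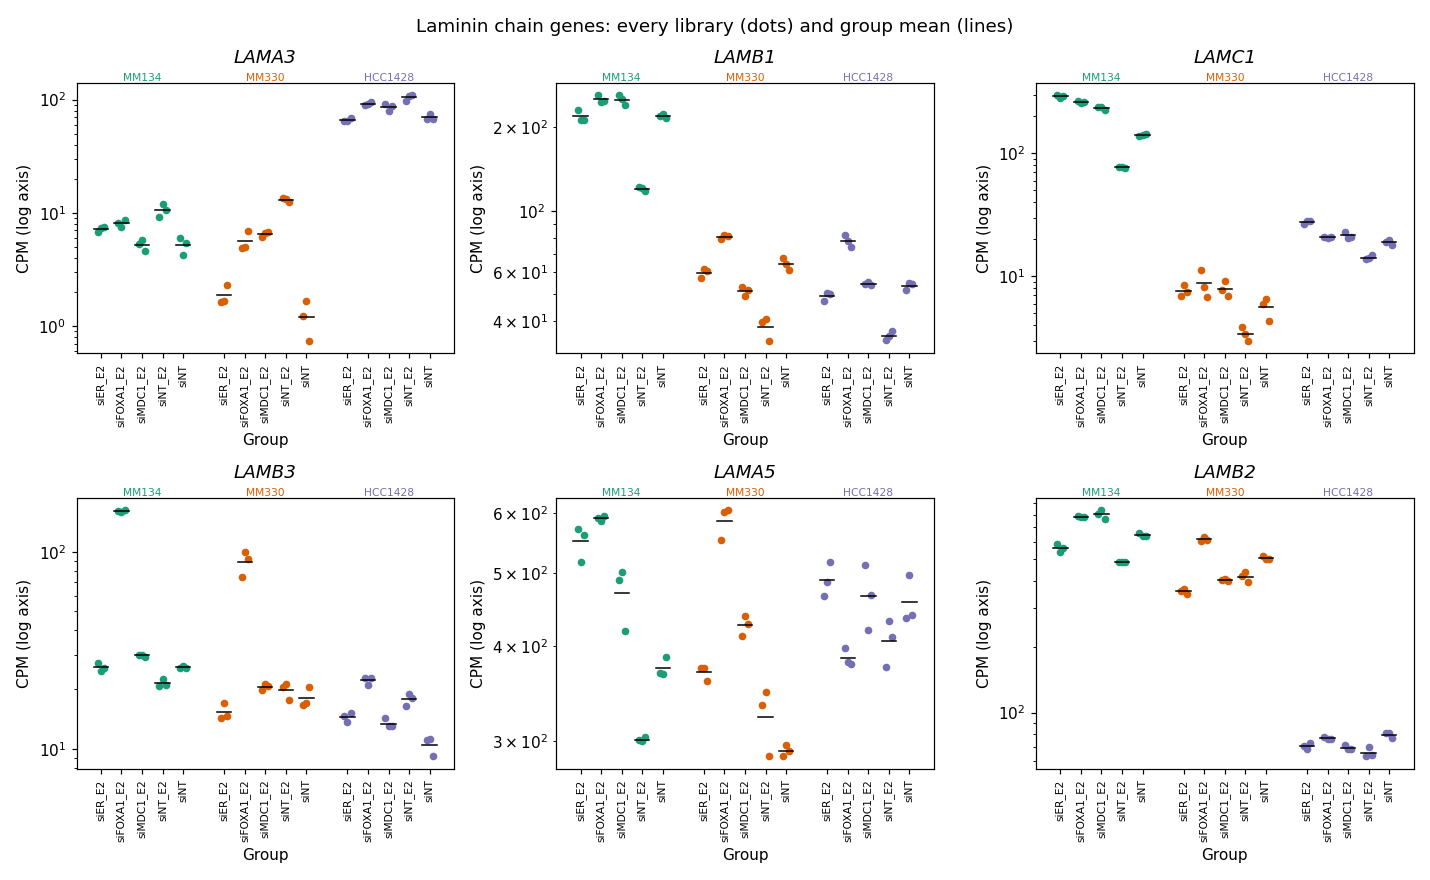
CPM on a log axis of 6 laminin genes in every library (dots) with the group mean (line), coloured by line, with groups running siER_E2, siFOXA1_E2, siMDC1_E2, siNT_E2 and siNT. LAMB1 and LAMC1 have their lowest mean in siNT_E2 cells of each line, LAMA3 has its highest mean there, and LAMB3 stands apart in siFOXA1_E2 cells of MM134 and MM330.

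Collagen IV chains, the basement membrane collagens, are encoded as head-to-head gene pairs. The start sites of COL4A1 and COL4A2 lie 127 bases apart, those of COL4A4 and COL4A3 419 bases and the nearest ones of COL4A6 and COL4A5 380 bases. The COL4A2 and COL4A3 start regions are shown because COL4A2 has a near-silent partner beside it and COL4A3 a partner that changed with it: COL4A2 at chr13:110307034-110307333 (plus strand, GRCh38.p14, RefSeq) and COL4A3 at chr2:227164374-227164673 (plus strand), with capitals for the same motifs, here 1 GC box in COL4A2 and 2 in COL4A3.
COL4A2: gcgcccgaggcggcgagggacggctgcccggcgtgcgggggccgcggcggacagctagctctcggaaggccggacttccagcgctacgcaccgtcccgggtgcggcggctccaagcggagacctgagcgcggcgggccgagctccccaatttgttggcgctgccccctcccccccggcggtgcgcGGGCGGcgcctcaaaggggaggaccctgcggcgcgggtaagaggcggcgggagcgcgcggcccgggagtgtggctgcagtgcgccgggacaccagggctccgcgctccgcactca
COL4A3: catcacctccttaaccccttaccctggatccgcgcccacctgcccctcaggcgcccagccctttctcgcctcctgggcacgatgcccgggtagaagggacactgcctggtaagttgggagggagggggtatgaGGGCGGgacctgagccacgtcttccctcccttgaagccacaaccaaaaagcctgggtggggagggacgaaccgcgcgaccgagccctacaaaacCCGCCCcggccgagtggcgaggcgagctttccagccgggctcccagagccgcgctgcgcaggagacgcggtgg

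COL4A5, a chain of the minor collagen IV networks, was lower with estradiol in every line and higher with siER and siFOXA1. In MM134 it had 107, 106 and 108 CPM in siER_E2, 62.4, 59.2 and 62.5 in siFOXA1_E2, 55.8, 58.2 and 52.9 in siMDC1_E2, 41.3, 40.6 and 39.9 in siNT_E2, and 99.6, 110 and 99.3 CPM in siNT cells. The siER_E2 libraries overlapped those of siNT, and those of siNT_E2 lay below every other. The log2 differences in MM134, MM330 and HCC1428 were -1.34 ± 0.04, -0.52 ± 0.07 and -0.88 ± 0.14 for estradiol, 1.40 ± 0.04, 0.68 ± 0.07 and 1.00 ± 0.14 for siER, and 0.59 ± 0.04, 0.80 ± 0.07 and 0.74 ± 0.14 for siFOXA1. COL4A6, its partner gene, averaged 1.65 CPM in siER_E2, 0.628 in siNT_E2 and 2.48 CPM in siNT cells of MM134 (log2 -1.97 ± 0.26 for estradiol, 1.39 ± 0.27 for siER).

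COL4A3 and COL4A4, known as chains of kidney and lung collagen IV, were most abundant in HCC1428. There COL4A3 had 23.8, 26.4 and 24.0 CPM in siER_E2, 7.62, 7.85 and 6.54 in siFOXA1_E2, 6.82, 6.72 and 7.80 in siNT_E2, and 23.7, 22.5 and 24.2 CPM in siNT cells. The siER_E2 and siNT libraries overlapped each other and lay above the rest. The log2 difference was -1.72 ± 0.10 for estradiol (adjusted p = 3.3e-11), 1.79 ± 0.10 for siER (2.4e-11) and 0.04 ± 0.11 for siFOXA1 (0.77). COL4A4 averaged 22.6 CPM in siER_E2, 14.0 in siNT_E2 and 21.2 CPM in siNT cells of HCC1428 (log2 -0.61 ± 0.08 for estradiol and 0.70 ± 0.08 for siER). COL4A2 had 1.36, 0.410 and 0.918 CPM in siFOXA1_E2 against 4.78, 4.89 and 5.16 CPM in siNT_E2 cells of MM330 (log2 -2.47 ± 0.26, adjusted p = 5.8e-07), and in HCC1428 averaged 0.294 against 0.899 CPM (log2 -1.59 ± 0.36).

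Fibrillar collagens moved in different directions. COL27A1, a fibrillar collagen of cartilage, rose with estradiol in each line (log2 1.04 ± 0.05 in MM134, 0.96 ± 0.20 in MM330 and 1.05 ± 0.07 in HCC1428) and fell with siER (-0.56 ± 0.04, -0.89 ± 0.20 and -0.75 ± 0.07). In MM134 it had 126, 112 and 118 CPM in siER_E2, 81.3, 75.1 and 76.1 in siFOXA1_E2, 88.8, 92.3 and 80.5 in siMDC1_E2, 176, 175 and 173 in siNT_E2, and 86.2, 85.0 and 83.9 CPM in siNT cells. The siNT_E2 libraries lay above all others, with log2 differences of -1.17 ± 0.05 for siFOXA1 and -1.0 ± 0.05 for siMDC1. In MM330 siMDC1 gave -0.60 ± 0.19, a call that several of the alternatives given above ended. COL2A1, the collagen of cartilage fibrils, fell with estradiol in all lines (-0.73 ± 0.19, -0.89 ± 0.14 and -2.61 ± 0.45), on a mean of 0.173 CPM in siNT_E2 against 1.12 CPM in siNT cells of HCC1428. It fell with siFOXA1 in MM134 (-1.09 ± 0.20, adjusted p = 8.7e-05) and MM330 (-1.29 ± 0.16, 3.4e-06).

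COL1A1, the main chain of type I collagen, rose with estradiol in HCC1428 and fell in MM134. It had 79.4, 79.2 and 77.1 CPM in siNT_E2 against 42.6, 43.8 and 42.2 CPM in siNT cells of HCC1428 (log2 0.88 ± 0.05, adjusted p = 3.3e-11), and 101, 109 and 105 CPM in siNT_E2 against 127, 125 and 128 CPM in siNT cells of MM134 (log2 -0.27 ± 0.04). The groups overlap in neither line. In HCC1428 it fell with siER, siFOXA1 and siMDC1 (-0.80 ± 0.05, -0.64 ± 0.05 and -0.76 ± 0.05), and with siMDC1 also in MM134 (-0.38 ± 0.04) and MM330 (-0.35 ± 0.07). With siFOXA1 it also fell in MM134 (-0.40 ± 0.04) and rose in MM330 (0.30 ± 0.07). COL5A1, which nucleates type I fibrils, rose with FOXA1 knockdown in each line: it had 56.0, 64.8 and 66.4 CPM in siFOXA1_E2 against 13.9, 15.4 and 14.4 CPM in siNT_E2 cells of MM330 (log2 2.10 ± 0.09, adjusted p = 1.9e-11), and averaged 4.89 against 1.80 CPM in MM134 (1.44 ± 0.19) and 7.96 against 5.71 CPM in HCC1428 (0.48 ± 0.14, adjusted p = 0.0075). In MM330 it also rose with estradiol (1.5 ± 0.10) and fell with siER (-1.42 ± 0.10). COL11A2, a minor fibrillar chain, fell with estradiol in HCC1428, at 17.7, 20.1 and 19.4 CPM in siNT_E2 against 37.5, 43.4 and 40.6 CPM in siNT cells (log2 -1.09 ± 0.06). It also fell with estradiol in MM134 (-0.70 ± 0.13), and MM330 gave -0.17 ± 0.10 (adjusted p = 0.29).

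Among collagens that sit on fibrils, COL12A1 had its highest level in HCC1428, at 1811, 1792 and 1767 CPM in siFOXA1_E2, 1084, 1171 and 1172 in siNT_E2, and 1098, 1113 and 1053 CPM in siNT cells. The siFOXA1_E2 libraries lay above the others. The siFOXA1 difference was 0.65 ± 0.04 (adjusted p = 4e-11), and estradiol gave 0.07 ± 0.04 (0.12). In MM330 it had 1.72, 1.97 and 2.05 CPM in siNT_E2 against 0.107, 0.111 and 0.0387 CPM in siNT cells, a log2 difference of 4.37 ± 0.42 that rests on 8 counts in siNT. MM134 had 7.79 CPM in siNT_E2 against 2.84 CPM in siNT cells (log2 1.46 ± 0.17), and there it fell with siER (-1.01 ± 0.16) and siMDC1 (-0.86 ± 0.16). COL16A1, which associates with fibrils, rose with siFOXA1 in each line: it averaged 6.40 against 2.10 CPM in siNT_E2 cells of MM134 (log2 1.60 ± 0.22), 2.35 against 0.237 CPM in MM330 (3.29 ± 0.66) and 112 against 43.8 CPM in HCC1428 (1.36 ± 0.05). In HCC1428 it fell with siMDC1 (-0.52 ± 0.05). COL9A2, a chain of cartilage collagen IX, gave estradiol differences of -1.60 ± 0.10, -0.87 ± 0.10 and -0.64 ± 0.05 in MM134, MM330 and HCC1428, and siER differences of 0.88 ± 0.10, 0.85 ± 0.10 and 0.63 ± 0.05. COL20A1, a fibril-associated collagen, averaged 33.3 ± 2.98 CPM in siER_E2, 14.9 ± 0.295 in siNT_E2 and 36.6 ± 2.22 CPM in siNT cells of HCC1428 (log2 -1.29 ± 0.08 for estradiol, 1.16 ± 0.08 for siER), and siMDC1 gave 0.61 ± 0.09 there. In MM330 its differences were -0.82 ± 0.14 for estradiol, 1.26 ± 0.14 for siER and 0.51 ± 0.14 for siMDC1, a call that ended without siMDC1_E2 replicate 1 or 2 or siNT_E2 replicate 3 (adjusted p 0.059, 0.083 and 0.11). COL21A1, another fibril-associated collagen, had 7.79, 7.89 and 8.03 CPM in siFOXA1_E2 against 2.47, 2.46 and 2.89 CPM in siNT_E2 cells of HCC1428 (log2 1.60 ± 0.15, adjusted p = 3.6e-08). No siFOXA1_E2 library overlapped siNT_E2.

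COL28A1, a collagen best known from peripheral nerve, changed most in HCC1428: 9.14, 7.88 and 10.8 CPM in siER_E2, 1.57, 1.55 and 1.39 in siNT_E2, and 11.4, 10.6 and 12.2 CPM in siNT cells. The siNT_E2 libraries were the lowest of these. Estradiol gave a log2 difference of -2.92 ± 0.14 (7.59-fold lower, adjusted p = 1.5e-12) and siER 2.63 ± 0.14. In MM134 estradiol gave -1.54 ± 0.43 and in MM330 -0.94 ± 0.17. COL7A1, which forms the anchoring fibrils under the basement membrane, rose with siER (0.41 ± 0.05, 0.41 ± 0.10 and 0.57 ± 0.06) and with siFOXA1 (0.21 ± 0.05, 0.64 ± 0.10 and 0.39 ± 0.06) in MM134, MM330 and HCC1428. COL17A1, the transmembrane collagen of hemidesmosomes, rose with siFOXA1 in the lobular lines, at 1.40 against 0.132 CPM in siNT_E2 cells of MM134 (log2 3.44 ± 0.46, on 11 counts in siNT_E2) and 6.65 against 2.36 CPM in MM330 (1.49 ± 0.28). In HCC1428 it had too few counts to be tested. With siER it fell in MM330 (-1.63 ± 0.30), and MM134 gave 1.21 ± 0.54 (adjusted p = 0.063). COL18A1, the endostatin precursor, rose with siFOXA1 (0.20 ± 0.04, 0.86 ± 0.05 and 0.18 ± 0.04) and with estradiol in MM134 (0.72 ± 0.05) and MM330 (0.37 ± 0.05), and estradiol gave -0.02 ± 0.04 in HCC1428 (adjusted p = 0.71). It fell with siER in MM134 (-0.78 ± 0.05) and MM330 (-0.66 ± 0.05), and siER gave 0.09 ± 0.04 in HCC1428 (adjusted p = 0.089). SLC19A1 on the other strand shares 1401 exon bases with it, and the strand setting of the counting is not given in the sources used here. COL6A1, the first chain of collagen VI, averaged 24.6 CPM in siNT_E2 cells of HCC1428, against 5.73 CPM in those of MM134 and 1.23 CPM in those of MM330.

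**Figure D4:**
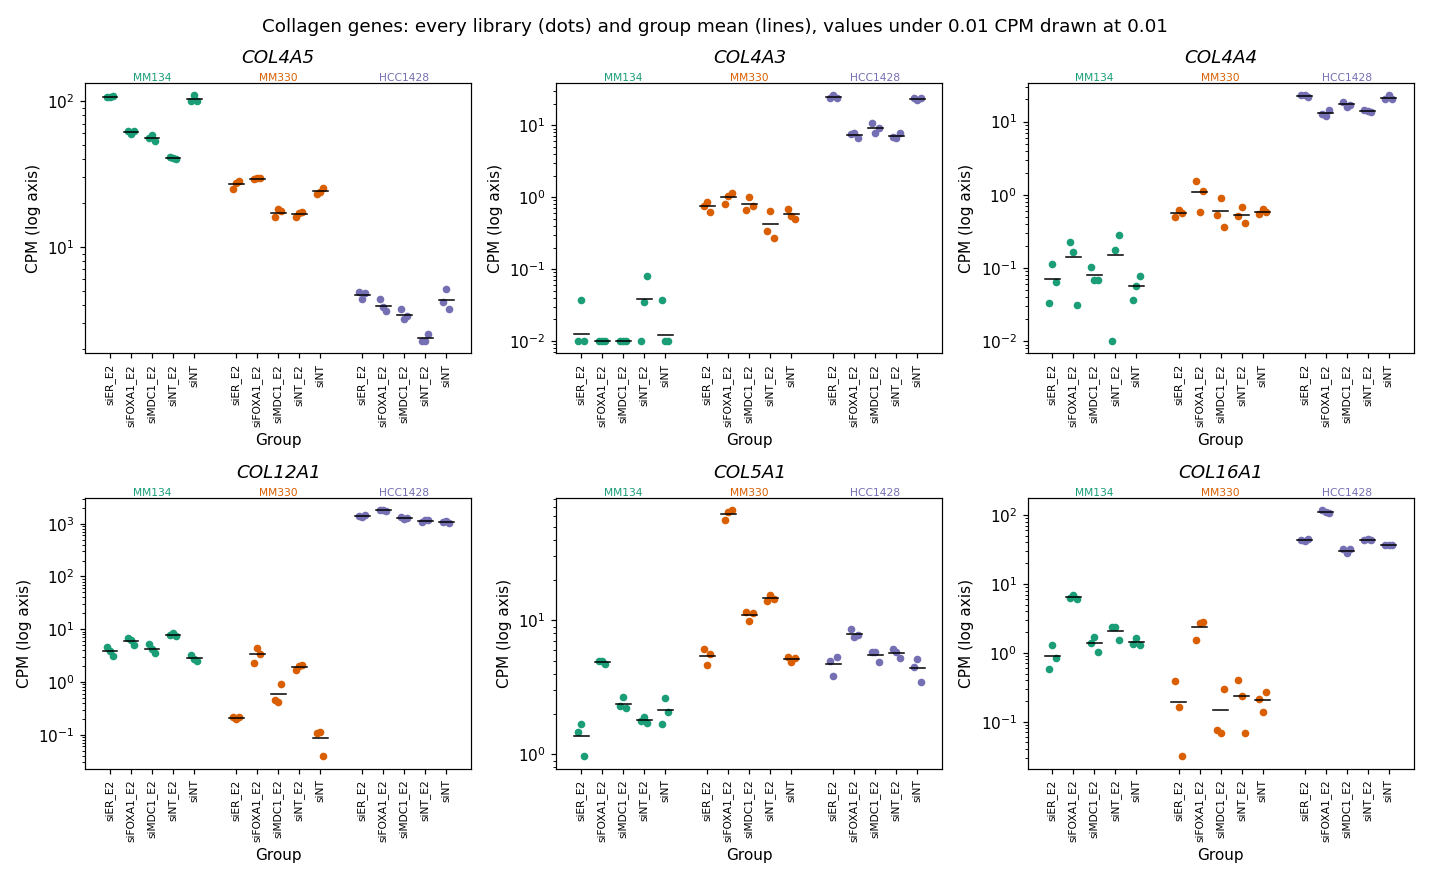
CPM on a log axis of 6 collagen genes in every library (dots) with the group mean (line), coloured by line, with values under 0.01 CPM drawn at 0.01 and groups running siER_E2, siFOXA1_E2, siMDC1_E2, siNT_E2 and siNT. COL4A3 is higher in siER_E2 and siNT cells of HCC1428 than in the other groups, and COL5A1 is highest in siFOXA1_E2 cells of MM330.

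The summed level of the 19 integrins was highest with FOXA1 knockdown in the lobular lines, and in HCC1428 siFOXA1_E2 and siMDC1_E2 differed by less than their spread. It averaged 866 ± 24.6 CPM in siER_E2, 1266 ± 11.8 in siFOXA1_E2, 1039 ± 6.05 in siMDC1_E2, 760 ± 9.05 in siNT_E2 and 729 ± 13.3 CPM in siNT cells of MM134, 1351 ± 18.4, 1851 ± 33.6, 1477 ± 31.2, 1298 ± 15.7 and 1272 ± 12.3 CPM in MM330, and 791 ± 6.40, 980 ± 4.03, 976 ± 15.6, 902 ± 23.8 and 767 ± 9.95 CPM in HCC1428 (SD, n = 3). All 3 laminin-binding alphas (ITGA3, ITGA6 and ITGA7) rose with siFOXA1 in MM134 and in MM330, and 1 rose and 1 fell in HCC1428. ITGA3, whose product pairs with that of ITGB1 to bind laminin-332 and laminin-511, had 272, 259 and 268 CPM in siFOXA1_E2 against 80.2, 78.1 and 78.1 CPM in siNT_E2 cells of MM134 (log2 1.76 ± 0.04, adjusted p = 3e-20). It had 221, 228 and 230 against 121, 123 and 111 CPM in MM330 (0.93 ± 0.04) and 281, 278 and 266 against 184, 195 and 181 CPM in HCC1428 (0.56 ± 0.04). No siFOXA1_E2 library overlapped siNT_E2 in any line. It also rose with siER (0.88 ± 0.04, 0.31 ± 0.04 and 0.30 ± 0.04) and siMDC1 (1.19 ± 0.04, 0.23 ± 0.04 and 0.25 ± 0.04). ITGA6 rose with siFOXA1 in MM134 (171 against 105 CPM, log2 0.70 ± 0.03) and MM330 (70.7 against 51.3 CPM, 0.46 ± 0.05), and fell in HCC1428 (2.53 against 4.04 CPM, -0.67 ± 0.17). ITGA7, a laminin-binding alpha best known from muscle, had 7.60, 5.10 and 6.21 CPM in siMDC1_E2 against 4.31, 4.41 and 3.59 CPM in siNT_E2 cells of MM330 (log2 0.62 ± 0.16, adjusted p = 0.0097). The call ended without siMDC1_E2 replicate 1 (0.074) or siNT_E2 replicate 3 (0.059).

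ITGB4, the other subunit of the hemidesmosome integrin, changed most in MM134, the line with least of it. It had 16.3, 15.1 and 16.3 CPM in siER_E2, 28.2, 27.3 and 27.6 in siFOXA1_E2, 29.7, 32.5 and 28.6 in siMDC1_E2, 6.85, 6.29 and 6.85 in siNT_E2, and 15.2, 17.6 and 16.7 CPM in siNT cells. The siNT_E2 libraries were the lowest, and siER_E2 overlapped siNT. The log2 difference was -1.31 ± 0.07 for estradiol (adjusted p = 1.9e-12), 1.25 ± 0.08 for siER, 2.06 ± 0.07 for siFOXA1 and 2.18 ± 0.07 for siMDC1. MM330 averaged 446 CPM in siFOXA1_E2 against 353 CPM in siNT_E2 cells (0.34 ± 0.04), with an estradiol difference of -0.01 ± 0.04 (adjusted p = 0.87). In HCC1428 it averaged 111 CPM in siNT_E2 against 79.7 CPM in siNT cells (0.48 ± 0.04). The basal and luminal marker sums given with LAMB3 were higher with siFOXA1 in the same libraries, and their part in the ITGB4 and COL17A1 results was not tested.

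ITGB1, the common beta subunit, changed by smaller amounts. It averaged 317 CPM in siER_E2, 344 in siFOXA1_E2 and 328 in siMDC1_E2 against 188 CPM in siNT_E2 cells of MM134 (log2 0.75 ± 0.03, 0.87 ± 0.03 and 0.80 ± 0.03), and 608, 609 and 589 against 451 CPM in MM330 (0.43 ± 0.03, 0.43 ± 0.03 and 0.38 ± 0.03). In HCC1428 it was 176 CPM in siER_E2 and 199 CPM in siMDC1_E2 against 159 CPM in siNT_E2 cells (0.15 ± 0.03 and 0.32 ± 0.03), and siFOXA1 gave 0.06 ± 0.03 (adjusted p = 0.14). ITGA2, whose product pairs with it to bind collagen, rose with siFOXA1 in the lobular lines: 34.3, 34.8 and 37.9 CPM in siFOXA1_E2 against 12.6, 10.9 and 9.78 CPM in siNT_E2 cells of MM134 (log2 1.67 ± 0.09), and 268, 315 and 299 against 101, 97.9 and 111 CPM in MM330 (1.51 ± 0.06). In HCC1428 it averaged 102 CPM in siFOXA1_E2 against 104 CPM in siNT_E2 cells (-0.03 ± 0.04, adjusted p = 0.54). With estradiol ITGA2 gave -0.20 ± 0.10 in MM134 (adjusted p = 0.084), 0.81 ± 0.06 in MM330 (2e-08) and 0.75 ± 0.04 in HCC1428 (8.6e-12). It fell with siER in HCC1428 (-1.0 ± 0.04) and in MM330, and rose with siER in MM134, a call that some of the alternatives run ended.

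The 2 subunits of the vitronectin receptor moved in opposite directions with estradiol. ITGB5 had 295, 291 and 297 CPM in siNT_E2 against 140, 122 and 124 CPM in siNT cells of MM134 (log2 1.19 ± 0.04, adjusted p = 7.2e-16), and rose in MM330 (0.69 ± 0.06) and HCC1428 (0.71 ± 0.06). It fell with siER in all lines (-0.79 ± 0.04, -0.47 ± 0.06 and -0.74 ± 0.06), and with siFOXA1 in MM330 (-0.18 ± 0.06, adjusted p 0.062 without siNT_E2 replicate 3). ITGAV, its alpha partner, averaged 54.8 CPM in siNT_E2 against 112 CPM in siNT cells of MM134 (-1.03 ± 0.05) and 85.8 against 110 CPM in HCC1428 (-0.36 ± 0.04). In MM330 it was 55.6 against 66.3 CPM (-0.26 ± 0.06, adjusted p = 0.0042), a call lost with only the libraries of lower pseudogene share (0.17). ITGB6, the epithelial partner of ITGAV, had 4.66, 3.99 and 4.25 CPM in siMDC1_E2, 0.396, 0.386 and 0.200 in siNT_E2, and 2.69, 2.98 and 3.96 CPM in siNT cells of MM134. The siNT_E2 libraries were the lowest of these. Its log2 difference was 3.67 ± 0.28 for siMDC1 (adjusted p = 3.4e-10) and -3.24 ± 0.29 for estradiol (2.5e-09). A lncRNA gene on the same strand, AC092153.1, shares 966 exon bases with ITGB6, and reads there cannot be told apart.

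ITGA5, the alpha subunit of the fibronectin receptor, fell with siFOXA1 in all lines, at 0.631 against 1.21 CPM in siNT_E2 cells of MM134 (-0.94 ± 0.24), 1.41 against 3.29 CPM in MM330 (-1.21 ± 0.23) and 0.593 against 2.54 CPM in HCC1428 (-2.08 ± 0.19). ITGAL, the alpha subunit of the leukocyte integrin LFA-1, averaged 3.51 CPM in siFOXA1_E2 against 18.1 CPM in siNT_E2 cells of MM330 (log2 -2.40 ± 0.19) and 2.43 against 11.8 CPM in HCC1428 (-2.27 ± 0.12), and siER (-0.99 ± 0.17 in MM330 and -0.81 ± 0.10 in HCC1428) and siMDC1 (-0.75 ± 0.17 and -0.74 ± 0.10) lowered it too, in cells whose 5 immune markers summed to at most 0.706 CPM in any library. AC116348.3 and AC116348.2 on the other strand share exon bases with ITGAL and may share reads. ITGAE, the alpha subunit of the integrin that binds E-cadherin, fell with siFOXA1, at 4.75 against 6.94 CPM in siNT_E2 cells of MM134 (-0.54 ± 0.13), 7.74 against 10.1 CPM in MM330 (-0.39 ± 0.13, a call that leaving out 1 library ended) and 3.33 against 6.04 CPM in HCC1428 (-0.86 ± 0.12). Estradiol raised it in HCC1428 (0.85 ± 0.12). ITGB8, another ITGAV partner, fell with siFOXA1 in MM134 (0.828 against 2.50 CPM, -1.60 ± 0.20) and rose in HCC1428 (2.67 against 0.689 CPM, 1.92 ± 0.31).

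**Figure D5:**
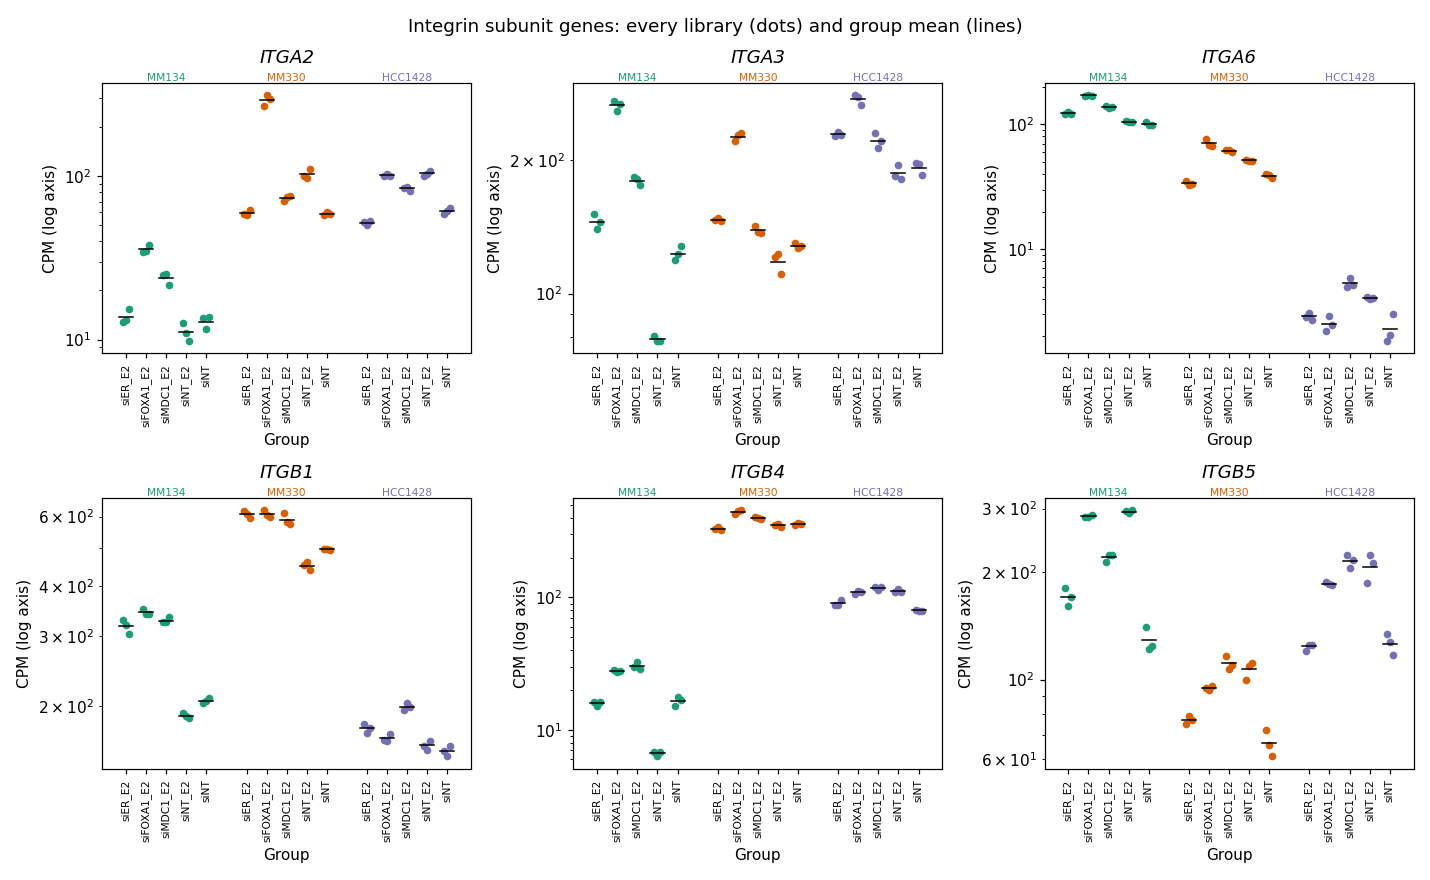
CPM on a log axis of 6 integrin genes in every library (dots) with the group mean (line), coloured by line, with groups running siER_E2, siFOXA1_E2, siMDC1_E2, siNT_E2 and siNT. ITGA3 has its highest mean in siFOXA1_E2 cells of each line, ITGB5 is higher in siNT_E2 than in siNT cells of each line, and ITGB4 is lowest in siNT_E2 cells of MM134.

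Genes that act with these families were counted from lists of the adhesion plaque (29 genes), collagen modification and secretion (25) and other matrix proteins (22). With siFOXA1, 19 of 26 tested plaque genes rose and 4 fell in MM134, 14 of 27 rose and 8 fell in MM330, and 9 of 27 rose and 6 fell in HCC1428, where 27.9% and 28.5%, 24.4% and 24.6%, and 24.1% and 29.5% of all genes rose and fell in the same lines. With siMDC1, 19 rose and 4 fell in MM134, 14 and 4 in MM330, and 7 and 3 in HCC1428 (all genes 25.4% and 25.0%, 10.4% and 10.4%, and 13.2% and 15.9%). Estradiol raised 9 and lowered 11 in MM134, 4 and 8 in MM330, and 13 and 6 in HCC1428 (all genes 27.2% and 27.2%, 13.7% and 12.6%, and 29.1% and 25.7%). Of the collagen-modifying genes, estradiol raised 10 of 20 and lowered 5 in MM134, 6 and 1 of 20 in MM330, and 11 and 3 of 19 in HCC1428, to be read against the same shares. With siFOXA1, 13 of them rose and 4 fell in MM134, 3 and 5 in MM330, and 3 and 9 in HCC1428, to be read against the siFOXA1 shares. With siER, 5 rose and 8 fell in MM134, 5 and 2 in MM330, and 2 and 9 in HCC1428 (all genes 29.3% and 27.9%, 15.1% and 17.4%, and 22.5% and 28.7%). Of the other matrix genes, siFOXA1 raised 8 of 16 and lowered 4 in MM134, 8 and 4 of 15 in MM330, and 4 and 5 of 14 in HCC1428, to be read against the siFOXA1 shares. Zyxin (ZYX), a plaque protein of stress fibres, rose with siFOXA1 by 1.24, 0.24 and 0.29 on the log2 scale in MM134, MM330 and HCC1428, plectin (PLEC), which links hemidesmosomes to keratin, by 0.44, 0.82 and 0.63, and the collagen receptor DDR1 by 1.09, 0.68 and 0.56. The siFOXA1 differences of FN1, fibronectin, were -1.94, -1.41 and -0.29. COLGALT1, which adds galactose to collagen, rose with estradiol in each line (0.69, 0.25 and 0.69) and fell with siFOXA1 (-0.70, -0.69 and -0.77). MIA3, which packs collagen for export, fell with estradiol (-1.23, -1.37 and -0.54) and rose with siER (0.81, 0.86 and 0.32). PLOD2, a collagen lysyl hydroxylase, rose with estradiol in MM134 (2.15) and HCC1428 (1.00), and in MM330 its difference was 0.16 (adjusted p = 0.18). These genes were chosen with their values known.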

How the data were processed

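RNA-seq of 45 libraries (RNeasy RNA, Illumina Stranded mRNA Prep, paired reads of 150 bases, per the labels' protocols) was used as the raw read counts per gene that the authors deposited. The submitters' processing notes name STAR 2.6.0a, GRCh38/hg38 and limma. The counting tool, its strand setting and the annotation are not given in the sources used here. Members were taken by symbol, and exon lengths and positions from GENCODE 29, which held 56598 of the 57353 rows. Each line was fitted alone with edgeR 4.0.16 (R 4.3.3) on raw counts (filterByExpr, TMM scaling, quasi-likelihood test, one mean per group, Benjamini-Hochberg adjustment over all genes tested), and line comparisons and interactions were fitted over all 45 libraries. CPM were computed from TMM-scaled totals within a line and are means ± SD over 3 libraries, and log2 differences carry an SE. The code was tested on simulated data. DESeq2 1.42.0, limma 3.58.1 (voom) and other alternatives were run on the same counts. Totals of 21.0 to 36.7 M counts limit the precision of members near 1 CPM. Tests were printed for the 3 highest and 3 lowest called members of each within-line comparison with at least 5 CPM and no overlap. Members called in at least 9 of 12 comparisons, the chains of set assemblies and the largest differences between lines were named by the same rule, with part of their tests printed. Values of 1 member are not reported here. Other genes were named after their values were seen. Members and gene lists were chosen with earlier results of these data known. Promoter windows come from RefSeq on GRCh38.p14.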

Additional observations from a re-analysis of the deposited data

Results flagged for a closer look

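The effect of each treatment was compared between a lobular line and HCC1428 by an interaction term in edgeR's quasi-likelihood fit over all 45 libraries, with an adjusted p under 0.05 as the call. Single members are given below where the effect was called in opposite directions in the compared lines, or where the difference was among the 3 highest or 3 lowest, was at least 2 on the log2 scale and rested on more than 3 counts in each group. Between MM134 and HCC1428 the estradiol effect differed for 28 members, the siER effect for 22, the siFOXA1 effect for 23 and the siMDC1 effect for 19, where 26.5%, 24.5%, 30.5% and 18.6% of all genes differed. Between MM330 and HCC1428 the counts were 23, 17, 23 and 7, against 28.3%, 25.3%, 22.2% and 13.8% of all genes. Effects and differences of effects below are on the log2 scale, with SE for the difference, and what sets the lines apart was not tested.

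For laminin chains and hemidesmosome integrins, ITGB4 in MM134 differed from HCC1428 in all 4 effects: by -1.76 ± 0.09 (adjusted p = 3.4e-20) for estradiol, 1.49 ± 0.09 (adjusted p = 2.9e-17) for siER, 2.03 ± 0.08 (adjusted p = 2.4e-22) for siFOXA1 and 2.10 ± 0.08 (adjusted p = 2.2e-22) for siMDC1. LAMB3 also did, by -1.01 ± 0.14 (adjusted p = 1.1e-07), 0.51 ± 0.13 (adjusted p = 0.0028), 2.54 ± 0.13 (adjusted p = 2e-19) and 0.88 ± 0.13 (adjusted p = 2.4e-06) for the same treatments in order. Its estradiol effect was -0.27 in MM134 and 0.77 in HCC1428, so the lines moved in opposite directions. LAMA3 differed in MM330, by 2.79 ± 0.18 (adjusted p = 6.7e-16) for estradiol (3.40 in MM330 and 0.59 in HCC1428) and -2.13 ± 0.17 (adjusted p = 2.9e-13) for siER (-2.79 in MM330 and -0.68 in HCC1428). ITGA6 with siFOXA1 rose in the lobular lines and fell in HCC1428, a difference of 1.33 ± 0.12 (adjusted p = 7.5e-12) for MM134 and 1.10 ± 0.12 (adjusted p = 2.7e-09) for MM330, and with siER MM134 differed by 0.65 ± 0.12 (adjusted p = 3e-05, effects 0.21 in MM134 and -0.48 in HCC1428). By itself, the siER call of ITGA6 in HCC1428 ended under 5 of the alternatives run, among them the replicate block (adjusted p = 0.092). LAMB2 with siER differed between MM330 and HCC1428 by -0.36 ± 0.06 (adjusted p = 1.7e-05, effects -0.23 in MM330 and 0.10 in HCC1428). The HCC1428 call of LAMB2 by itself ended under 6 of the alternatives run, among them the replicate block (adjusted p = 0.23), so its rise there is uncertain.

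For collagens and other integrins, COL12A1 differed in MM330 by 4.29 ± 0.42 (adjusted p = 5.6e-11) for estradiol (4.37 in MM330 and 0.07 in HCC1428), -3.49 ± 0.34 (adjusted p = 8.2e-11) for siER and -1.85 ± 0.28 (adjusted p = 4.6e-06) for siMDC1, and in MM134 by -1.37 ± 0.15 (adjusted p = 9.9e-10) for siER, -1.07 ± 0.14 (adjusted p = 3.1e-08) for siFOXA1 and -1.02 ± 0.15 (adjusted p = 7.5e-07) for siMDC1. COL1A1 with estradiol differed by -1.12 ± 0.08 (adjusted p = 3e-15) in MM134 (-0.27 in MM134 and 0.88 in HCC1428), and with siFOXA1 by 0.91 ± 0.08 (adjusted p = 2e-11) in MM330 (0.30 in MM330 and -0.64 in HCC1428). COL26A1 with estradiol differed by 1.55 ± 0.26 (adjusted p = 6.5e-06) in MM134 (1.28 in MM134 and -0.25 in HCC1428), and COL9A2 with siFOXA1 by -0.61 ± 0.14 (adjusted p = 0.00055, effects -0.40 in MM134 and 0.16 in HCC1428). ITGA2 in MM134 differed by 1.25 ± 0.11 (adjusted p = 7.5e-12) for siER (0.31 in MM134 and -1.0 in HCC1428) and 1.39 ± 0.11 (adjusted p = 1.8e-13) for siMDC1 (1.09 in MM134 and -0.30 in HCC1428). ITGB8 with siFOXA1 differed by -3.56 ± 0.43 (adjusted p = 6.9e-09) in MM134 (-1.60 in MM134 and 1.92 in HCC1428). Some calls within 1 line behind these differences ended under alternatives run. With siFOXA1, that of COL12A1 in MM134 ended under 5, COL9A2 in HCC1428 under 3 and ITGB6 in MM134, given next, under 6. That of ITGA2 with siER in MM134 ended under 3, and that of COL26A1 with estradiol in HCC1428 under 1. ITGB6 with siFOXA1 differed by -2.29 ± 0.65 (adjusted p = 0.0054, effects -1.04 in MM134 and 1.20 in HCC1428), but not with limma-voom (adjusted p = 0.12) or with only the libraries of lower pseudogene share (0.075).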

How the results depend on the processing

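Of 433 single differences that passed the threshold, 362 passed it under every alternative run, and none changed direction. Of 5889 values under alternatives, 259 no longer passed: 164 when a library was left out, 31 with only the libraries of lower pseudogene share (which leaves 1 library in siNT and siER_E2 of HCC1428, assumed to vary like the other groups), 19 with no filter on low counts, 19 with a replicate block, 11 with only the compared libraries fitted, 6 each with DESeq2 and limma-voom and 3 with RLE scaling. Counts of called members stayed within 1.5 times the main count except for the difference of MM330 from HCC1428: with only the libraries of lower pseudogene share, the estradiol effect differed for 15 members instead of 23 and the siER effect for 11 instead of 17, and with DESeq2 the siMDC1 effect differed for 14 instead of 7. The cause was not tested. Leaving out each library in turn gave 30 to 34 members for estradiol in MM134, 20 to 23 in MM330 and 35 to 38 in HCC1428, and 13 to 17 for siMDC1 in MM330. Replicate numbers showed no steady pairing: same-numbered libraries deviated together by correlations of -0.56 to 0.58. In MM330 with estradiol, the highest correlation, 0.72, joined siNT_E2 replicate 1 and siNT replicate 2, which both had a high pseudogene share. Where such libraries occur, the share can mask a pairing, and the correlations cannot exclude one. With the replicate block the counts were 34, 32, 36 and 28 in MM134 (estradiol, siER, siFOXA1, siMDC1), 23, 30, 35 and 16 in MM330, and 35, 31, 28 and 19 in HCC1428. Of the calls listed for all lines, the block ended COL5A1 and LAMA3 with siFOXA1 in HCC1428 (adjusted p 0.072 and 0.052), LAMA5 with siMDC1 in HCC1428 (0.082) and COL27A1 with siMDC1 in MM330 (0.061). Depth limits members near 1 CPM, where a group holds few counts.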
